A study of Carya illinoinensis with 18 samples.

Results

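In leaves of drought-treated pecan (Carya illinoinensis), 200 of 31074 genes were chosen as early lasting falls, genes whose transcript level was lower by 6 d without water and had not come back by 15 d. The genes were selected on FPKM values, that is fragments normalized for transcript length and library size, taken as log2(FPKM + 1). A gene was kept when its 0 d mean was under 1000 FPKM, when its highest 15 d library was over 0.1 FPKM, and when its mean was lower at 15 d than at 0 d. In addition, the fall reached at 6 d had to be 0.5 to 2 times the fall reached at 15 d. These limits were met by 1919 genes, which were then ranked by the gap, the lowest log2 value among the 3 libraries of 0 d minus the highest among the 12 libraries of 6, 9, 12 and 15 d. The gap was positive in 532 genes, and the 200 of the largest gap are described here by their rank. The values of 0, 6, 9, 12 and 15 d therefore chose the genes, and are given below as a description. The libraries of 3 d played no part in the choice, although the 0 d libraries they are set against did.

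The RNA came from leaves of seedlings on which the cultivar Pawnee had been grafted. After growth with regular watering the plants were moved to a growth chamber, water was withheld for 15 days, and leaves were collected at 3, 6, 9, 12 and 15 d as well as at 0 d, with 3 libraries per day and 18 in all. Each sample pooled at least 3 plants. The libraries labelled untreated are those of 0 d, and no library of plants watered up to a later day is among the 18, so days without water cannot be told apart from plant age or days in the chamber. All plants carried the same scion cultivar, on rootstocks raised from seed.

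Leaves that run short of water accumulate abscisic acid, a hormone that closes the stomata, and carbon uptake and growth then slow. Messenger RNAs for growth, cell wall expansion and photosynthesis are commonly among those that decline under drought in leaves. A steady-state transcript level depends on synthesis and on decay, so a level can drop only as fast as the existing RNA is lost. In whole leaf samples, fewer cells of a type and less RNA per cell cannot be told apart.

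The 0 identifiers found in the RefSeq table of 45429 pecan genes left the genes without names, functions or sequences here, and the leaf label could not be compared with marker genes. Identifiers are printed for ranks 1 and 2 only. In the table, 31072 of the identifiers consist of a scaffold-like prefix and a gene number, and 3850 genes were at 0 in every library.

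Fragment counts were not used, and depth is known only between libraries. The FPKM of a library summed to 545598 to 587063, and the steps between low values placed the shallowest library, replicate 2 of 0 d, at 0.735 of the depth of replicate 1 of that day. In those steps, 83.0% of library pairs lay within 0.05 log2 of the fitted depths. Libraries of the same day correlated at r = 0.862 to 0.992 across genes, which are not independent replicates. The lowest pairs were replicates 2 and 3 of 12 d and replicates 1 and 2 of 9 d. With a mean of at least 0.1 FPKM over the libraries as the filter, 24443 genes were tested with limma, and all 200 chosen genes were among them. The 0 d values alone carried every chosen gene past this filter.

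Before water was withheld the 200 genes had mean levels of 0.877 to 413 FPKM at 0 d. Their median was 11.3 FPKM, beside 7.15 FPKM over all genes tested. With the added pseudocount, a gene of very low 0 d level cannot reach a large gap. The higher median is thus partly built into the choice, and nothing is read from it. For the days 3, 6, 9, 12 and 15, the median of the day means of the 200 genes was 5.69, 2.14, 1.76, 1.48 and 0.47 FPKM. At 0 d, 110 of the genes averaged at least 10 FPKM, 27 at least 50 and 12 at least 100, whereas 52 were under 5 FPKM. By 15 d, 105 genes averaged less than 0.5 FPKM. The summed FPKM of the 200 genes was 0.122% to 0.141% of the library total in the 15 d libraries, against 0.858% to 1.03% in the 0 d libraries. As a share of the 0 d level in FPKM as deposited, the median gene kept 58.9% at 3 d, 23.0% at 6 d and 6.01% at 15 d, with a range at 15 d of 0.17% to 56.0%. Over the genes tested with a 0 d mean above 0, the median share at 3 d was 111%. The same share was not computed for them at 6 d or 15 d. Less than 10% was left in 32 genes at 6 d and in 131 genes at 15 d.

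**Figure D1:**
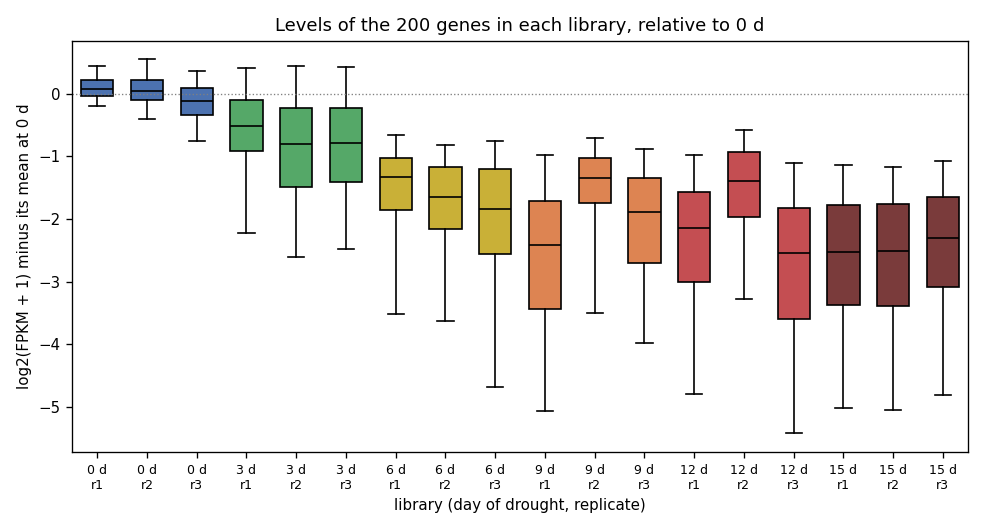
Levels of the 200 genes in each of the 18 libraries, as log2(FPKM + 1) minus the gene's own 0 d mean, with libraries ordered by day and replicate. Boxes hold the middle 50% of genes with a line at the median, and whiskers reach the percentiles 5 and 95. The medians of the 6 d to 15 d libraries lie between −1.34 and −2.55, below the medians of all 3 libraries of 3 d.

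The rule required at least 0.5 of the 15 d fall to be reached by 6 d, and the median gene had reached 0.673 of it. For the days 3, 6, 9, 12 and 15, the median log2 difference from 0 d was −0.69, −1.57, −1.95, −2.01 and −2.45. Over all genes tested, the same medians were 0.10, 0.12, 0.06, −0.01 and −0.24 in that order of days. The 332 genes that met the rule past rank 200 had medians of −0.36, −0.82, −0.90, −0.95 and −1.19. With median-ratio scaling of the libraries, all genes tested moved to between −0.03 and 0.01 on every day, and the chosen genes to −0.80, −1.73, −2.05, −2.06 and −2.31.

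In the limma fit over all 18 libraries with Benjamini-Hochberg adjustment, 166 of the 200 genes were called lower at 6 d than at 0 d at an adjusted p under 0.05, beside 2.9% of all genes tested. The calls numbered 197 at 9 d (7.55% of all genes), 199 at 12 d (13.3%) and 200 at 15 d (34%). The same libraries had chosen the genes, so nothing is read from these counts.

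The gap itself ranged from 0.387 to 4.44 on the log2 scale, with a median of 0.66 and quartiles of 0.493 and 1.02. It was at least 1 in 53 genes and at least 2 in 11 genes. A step separated these 11 from the rest, with a gap of 2.26 at rank 11 and 1.72 at rank 12, both ranks chosen after their values were seen. There was no step where the list ends. The gene at rank 200 had a gap of 0.387, with a highest later library of 2.87 FPKM against a lowest 0 d library of 4.06 FPKM. The first gene past it had a gap of 0.386, with 2.62 FPKM against 3.73 FPKM.

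**Figure D2:**
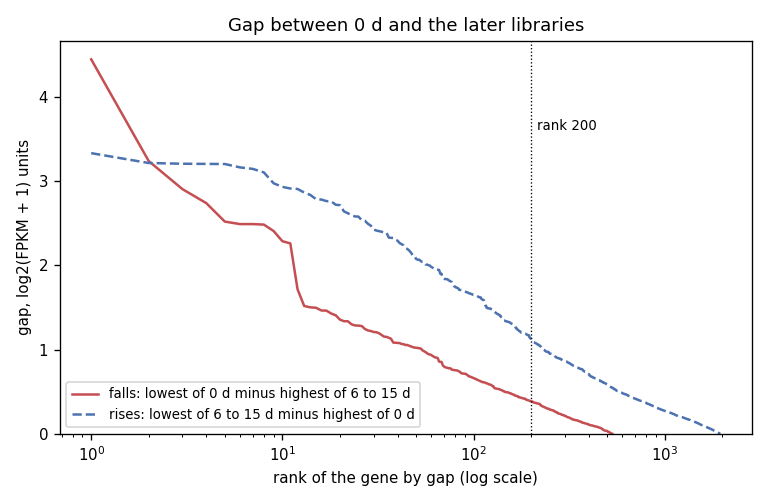
Gap between the 0 d and the 6 d to 15 d libraries, in log2(FPKM + 1), by rank of the gap for falls and for the mirrored rule that seeks lasting rises. Ranks are on a log axis, and the dotted vertical line marks rank 200. The fall curve drops to 0 after 532 genes and the rise curve after 1952, as deposited; with median-ratio scaling the counts turn to 1239 falls and 1040 rises.

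The count of genes that met the rule moved with the scale between libraries. As deposited, 532 genes met it against 1952 genes of the mirrored rule for early lasting rises, so that falls were 21.4% of both. With median-ratio scaling there were 1239 falls and 1040 rises, or 54.4% falls. Quantile normalization gave 1241 and 1395 genes, or 47.1%, and a pseudocount of 0.1 gave 412 and 2070 genes, or 16.6%. Of the 200 genes, 128 were chosen again with median-ratio scaling and 123 with quantile normalization. Replicate 3 of 0 d had a large part in the choice. It was the lowest 0 d library in 112 of the 200 genes and in 37% of all genes tested. Without it, 84 of the 200 genes were chosen again and 1236 genes met the rule with a positive gap.

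The gene of the largest gap, CIL1380S0010, was all but lost from the leaf by 6 d. Its 3 libraries had 42.6, 36.2 and 45.1 FPKM at 0 d, 7.37, 23.6 and 2.52 at 3 d, and 0.48, 0.11 and 0.64 at 6 d. At 9, 12 and 15 d no library exceeded 0.71 FPKM and 4 of these 9 libraries were at 0. All 3 d libraries lay below all 0 d libraries and above all later ones, and they differed among themselves more than the 0 d libraries did. The log2 difference at 3 d was −2.23 ± 0.49 (SE), with an adjusted p of 0.201 in the limma fit with Benjamini-Hochberg adjustment.

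CIL1523S0012, at rank 2, had 27.9, 20.9 and 16.1 FPKM at 0 d. At 3 d it had 0, 0.06 and 12.6 FPKM, so that 2 leaf samples already showed the later state and one did not. From 6 d on its values lay between 0 and 0.81 FPKM. The 3 d difference was −3.18 ± 0.70 (SE) on the log2 scale, adjusted p = 0.201 (limma, Benjamini-Hochberg).

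Ranks 3 to 10 covered several courses. Rank 3 had 29.96, 39.2 and 29.0 FPKM at 0 d, 21.0, 21.7 and 14.9 at 3 d, and 2.71, 1.72 and 1.23 at 6 d. It then varied between 0.08, 3.01 and 0.48 FPKM at 9 d, was at 0.07 FPKM in each library of 12 d, and stayed at or below 0.29 FPKM at 15 d. The 3 d libraries of this gene were closer together than those of ranks 1 and 2, and lay between those of 0 d and of the later days.

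Rank 4 was an abundant transcript at 0 d, with 222, 206 and 172 FPKM. It had 108, 70.5 and 3.25 FPKM at 3 d and 24.9, 12.4 and 5.42 FPKM at 6 d. The 9 d values were 0.39, 13.6 and 7.97 FPKM, those of 12 d 1.27, 5.50 and 0.96, and those of 15 d 0, 0.33 and 0.72. The level thus went on dropping after 6 d, and the mean at 15 d was 0.175% of that at 0 d.

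Rank 8 had a course close to that of rank 4. It had 209, 185 and 139 FPKM at 0 d, 88.5, 51.7 and 1.80 at 3 d, 24.0, 11.2 and 3.68 at 6 d, and no more than 0.60 FPKM at 15 d. After removal of the day means the pair correlated at r = 0.968 over the 18 libraries. In both genes, replicate 3 was the low library of 3 d and replicate 1 the low library of 9 d.

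Rank 5 had 190, 228 and 102 FPKM at 0 d and 57.3, 26.0 and 29.6 FPKM at 3 d. At 6 d it had 16.9, 2.98 and 1.72 FPKM, and no 15 d library exceeded 0.82 FPKM. Rank 9 had 30.5, 31.7 and 25.1 FPKM at 0 d, 15.2, 9.65 and 11.8 at 3 d and 3.93, 1.93 and 0.76 at 6 d. Both genes had all 3 d libraries between those of 0 d and those of the later days.

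Ranks 6 and 7 had identical FPKM in all 18 libraries, so the 200 genes hold 199 distinct profiles. In the table, 538 genes, 1.98% of those above 0, share their values with another gene, and RSEM divides fragments that align to more than one gene. This pair had 25.5, 12.9 and 39.4 FPKM at 0 d, and 10.6, 31.4 and 23.3 FPKM at 3 d. The 2 groups overlapped, and the 6 d libraries were at 0.10, 1.06 and 0.09 FPKM.

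Rank 10 was higher in 1 library of 3 d than in any library of 0 d. It had 127, 118 and 144 FPKM at 0 d, then 92.1, 368 and 115 at 3 d and 23.4, 8.81 and 17.98 at 6 d. Replicate 2 was also the high library of 9 d, at 22.5 FPKM beside 1.15 and 11.7, and of 12 d, at 22.0 FPKM beside 2.72 and 1.91. The gene at rank 11, whose identifier is next to that of rank 10, followed it at r = 0.993 after removal of the day means.

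**Figure D3:**
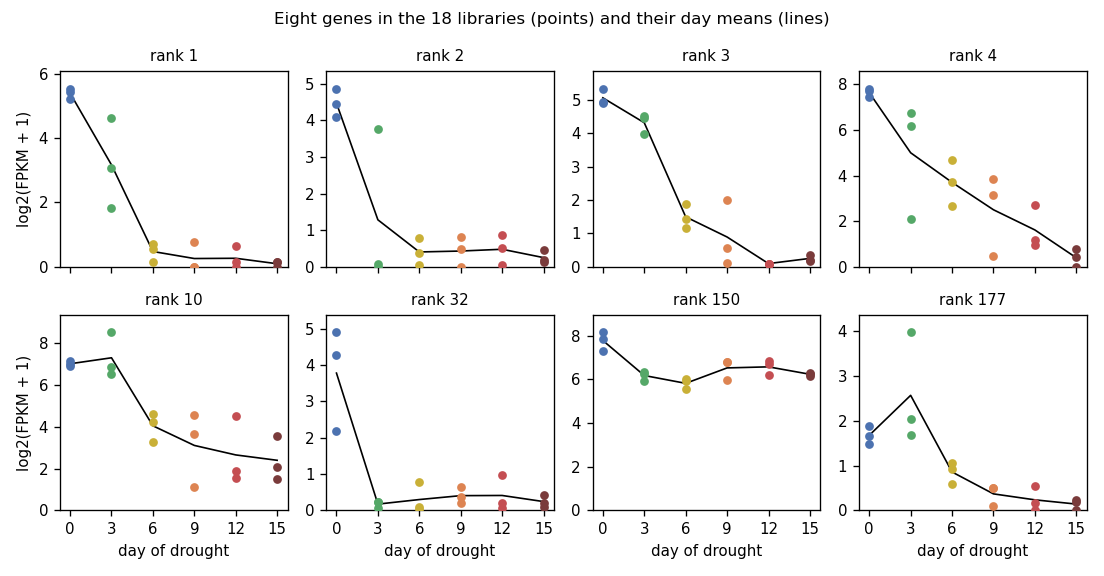
FPKM of 8 of the chosen genes in each library as log2(FPKM + 1) by day, with points for libraries and a line through the day means. Ranks 1 and 2 are near 0 from 6 d on, rank 10 has a 3 d library above every 0 d library, and rank 150 stays between 45.9 and 113 FPKM from 6 d on.

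The chosen gene of the highest 0 d level, at rank 84, had 466, 462 and 311 FPKM at 0 d. It had 262, 453 and 152 FPKM at 3 d and 179, 163 and 81.0 at 6 d. At 15 d 45.2, 28.1 and 67.8 FPKM were left, a mean of 11.4% of the 0 d level. Its 3 d libraries overlapped those of 0 d.

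Rank 15, the next in 0 d level, had 282, 249 and 176 FPKM at 0 d, then 31.6, 34.1 and 0.98 at 3 d. At 6 d it had 61.6, 6.94 and 0.83 FPKM. Replicate 1 of 6 d was thus higher than any library of 3 d, and the 3 d libraries all lay in the range of the later days. By 15 d the level was 0.30 to 0.61 FPKM.

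Rank 150, the next again, fell until 6 d, after which its means were higher. Its libraries had 234, 285 and 160 FPKM at 0 d, 60.9, 79.2 and 76.2 at 3 d, and 45.9, 59.4 and 63.2 at 6 d. It then had 111, 111 and 62.1 FPKM at 9 d, 104, 113 and 71.8 at 12 d, and 78.8, 75.3 and 69.8 at 15 d. A mean of 33.0% of the 0 d level was left at 15 d, and the 6 d mean was the lowest.

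The 3 genes of the lowest 0 d level were ranks 191, 142 and 169, with means of 0.877 ± 0.12, 1.21 ± 0.43 and 1.22 ± 0.05 FPKM (SD, n = 3). Rank 191 had 0, 0.06 and 0.10 FPKM at 6 d and 0.16, 0.24 and 0.32 FPKM at 15 d, and so kept 27.4% of its level at 15 d. In genes this low the added pseudocount of 1 compresses a difference.

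Rank 100, at the middle of the list, had 10.5, 9.58 and 8.17 FPKM at 0 d and 1.22, 0.78 and 1.39 FPKM at 3 d. It had 1.08, 0.97 and 1.52 FPKM at 6 d and 1.78, 1.54 and 1.23 FPKM at 15 d. The 3 d libraries lay within the range of the later days, and replicate 2 of 9 d and of 12 d was high at 3.95 and 4.79 FPKM. Rank 200, at its end, had 3.84, 1.84 and 3.89 FPKM at 3 d against 5.61, 4.16 and 4.06 FPKM at 0 d.

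How far the genes had fallen by 3 d was read from the 3 d libraries, which had not chosen them. The 0 d and 6 d libraries they are set against had. The mean at 3 d was below that at 0 d in 179 of the 200 genes and above it in 21, and it was above the 6 d mean in 192. Over all genes tested, the log2 difference at 3 d from 0 d had a median of 0.10 and quartiles of −0.12 and 0.31. The share of the 6 d fall reached at 3 d, in log2(FPKM + 1), had a median of 0.425 and quartiles of 0.191 and 0.624. It ranged from −1.09 to 1.22. The rule required the 0 d libraries to be high and those of 6 d to be low. A 3 d level below the former and above the latter is thus partly built into the choice.

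In 1 gene every 3 d library lay above every 0 d library. The share of all genes tested that did so was not counted, so nothing is read from it. In 98 genes every 3 d library lay below every 0 d library, beside 7.18% of all genes tested. Nevertheless, limma with Benjamini-Hochberg adjustment called 2 of the 200 genes lower at 3 d and 0 higher, beside 0.0245% and 0.00409% of all genes. At an unadjusted p under 0.05, 84 genes were lower and 2 higher, with 3.29% and 7.97% of all genes. With 3 libraries a day an exact permutation test cannot give a p under 0.1, so the calls rest on the spread limma pools across genes.

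The 2 called genes had lost nearly all of their transcript by 3 d. Rank 144 had 0.14, 0 and 0.07 FPKM at 3 d against 3.39, 2.50 and 1.23 FPKM at 0 d, a log2 difference of −1.60 ± 0.20 (SE) with an adjusted p of 0.0244 (limma, Benjamini-Hochberg). Rank 32 had 0.18, 0.04 and 0.16 FPKM at 3 d against 18.3, 28.9 and 3.51 FPKM at 0 d, a difference of −3.61 ± 0.50 (SE), adjusted p = 0.0329 in the same fit. The groups did not overlap in either gene, and the 3 d libraries were as low as those of later days. Neither was called with a pseudocount of 0.1 (limma with Benjamini-Hochberg adjustment, adjusted p = 0.0738 for rank 144 and 0.0863 for rank 32).

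These 3 d calls turned on single libraries. Rank 144 stayed called in 12 and rank 32 in 8 of the 18 fits that left out a library. The number of the 200 genes called was 18 without replicate 2 of 3 d, when 909 of all genes were called and 75 of those were lower. It was 6 without replicate 3 of 12 d, 5 without replicate 2 of 12 d, and 4 without replicate 3 of 0 d or replicate 2 of 9 d. It was 1 without replicate 3 of 3 d, replicates 1 or 3 of 6 d or replicate 1 of 12 d, and 0 without replicates 1 or 2 of 0 d or any one library of 15 d.

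The leaves sampled at 3 d differed from each other in these genes. Replicates 1, 2 and 3 of 3 d were below every 0 d library in 129, 156 and 157 of the 200 genes, beside 20.5%, 34.8% and 21.3% of all genes. They were within the range of the later days in 46, 84 and 80 genes. By library, the median share of the 6 d fall reached was 0.282, 0.460 and 0.488. Replicate 1 was thus the library nearest to 0 d.

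Gene by gene, the 3 d libraries seldom held the same position. All 3 were in the range of the later days in 28 genes, all 3 lay between in 22, and none was below every 0 d library in 11. The other 139 genes were mixed. In 90 genes at least one 3 d library was in the later range and at least one was not, and in 42 genes one library was in the later range while another was not below every 0 d library. The median SD within 3 d was 0.451 log2 for the chosen genes, beside 0.285 for all genes tested.

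**Figure D4:**
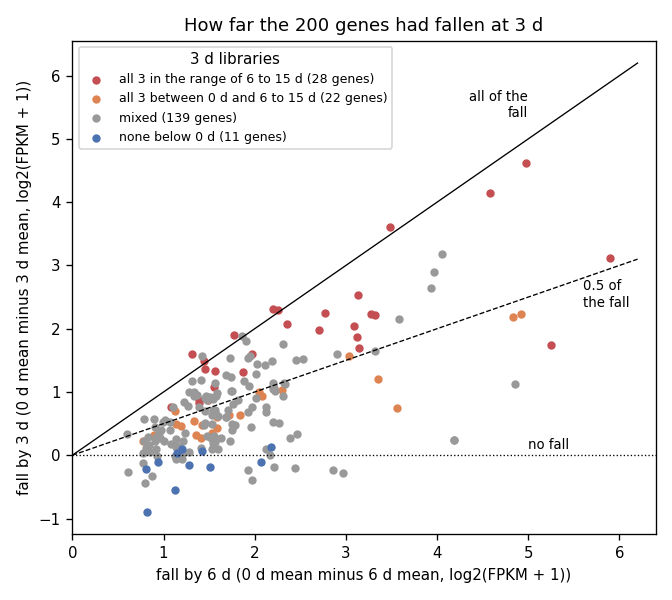
Fall by 3 d against fall by 6 d for each of the 200 genes, both as the 0 d mean minus the later mean in log2(FPKM + 1), coloured by where the 3 d libraries lie. The solid line marks genes with all of the 6 d fall at 3 d, the dashed line a share of 0.5 and the dotted line no fall. Shares spread between −1.09 and 1.22 around a median of 0.425, and the 28 genes with all 3 libraries in the later range lie toward the solid line.

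At the ends of this spread, the largest shares belonged to ranks 144, 53 and 166, at 1.22, 1.10 and 1.07. Rank 53 had 1.75, 0.22 and 0.56 FPKM at 3 d against 6.02, 3.45 and 3.40 FPKM at 0 d. Rank 166 had 1.69, 0 and 0.14 FPKM at 3 d against 6.33, 4.62 and 2.90 FPKM at 0 d. In both, the 3 d mean was already below the 6 d mean.

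The smallest shares belonged to ranks 177, 184 and 120, whose means were higher at 3 d than at 0 d. Rank 177 had 2.22, 3.13 and 14.8 FPKM at 3 d against 2.16, 2.70 and 1.79 FPKM at 0 d, and 0.91, 1.07 and 0.50 FPKM at 6 d. Replicate 3 was far above the other libraries, and replicate 1 of 3 d lay within the range of 0 d. Rank 184 had 5.13, 2.26 and 5.02 FPKM at 3 d against 2.91, 2.72 and 2.29 FPKM at 0 d.

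Rank 120 was the 1 gene with all 3 d libraries above all 0 d libraries. It had 3.62, 4.35 and 4.19 FPKM at 3 d against 2.36, 3.21 and 1.90 FPKM at 0 d, then 0.41, 0.46 and 0.93 FPKM at 6 d. The 3 d difference was 0.55 ± 0.23 (SE) on the log2 scale and was not called.

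Between 9 d and 12 d, where the rule sets no direction, no change was called. In the limma fit with Benjamini-Hochberg adjustment 0 of the 200 genes and 0 of all genes tested were called, lower (0%) or higher (0%). At an unadjusted p under 0.05, 2 of the 200 genes were lower at 12 d and 0 higher, and of all genes 277 (1.13%) were lower and 188 (0.769%) higher. The median log2 difference was −0.13 for the chosen genes and −0.08 for all genes tested. It was below 0 in 140 of the chosen genes and in 64.0% of all genes. With median-ratio scaling it was below 0 in 127 and with quantile normalization in 121 of the chosen genes.

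Every 12 d library lay below every 9 d library in 2 of the 200 genes, ranks 3 and 142, beside 2.31% of all genes. The 2 genes of the lowest p were ranks 171 and 3. Rank 171 had 0.06, 0.17 and 0.06 FPKM at 12 d against 0.07, 0.84 and 0.90 FPKM at 9 d, a log2 difference of −0.50 with an adjusted p of 1 (limma, Benjamini-Hochberg). Rank 3 had 0.07 FPKM in each 12 d library against 0.08, 3.01 and 0.48 FPKM at 9 d, a difference of −0.80 with an adjusted p of 1 in the same limma fit. In both genes replicate 1 of 9 d was close to the 12 d libraries.

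After 6 d the rule kept every library below those of 0 d and bounded the further drop, but it did not fix the order of the later days. The fall at 6 d was 0.50 to 1.61 times that at 15 d, with a median of 0.673, was under 0.6 times in 72 genes and exceeded 1 in 14. The 15 d mean was below the 6 d mean in 186 genes and above it in 14, with 68.9% of all genes tested below, and the median gene kept 28.5% of its 6 d level at 15 d. The median log2 difference at 15 d against 6 d was −0.77 for the chosen genes and −0.39 for all genes tested. Rescaling, applied to these later steps after the data had been seen, gave −0.53 and −0.04 with median-ratio scaling and −0.43 and −0.04 with quantile normalization, with 163 and 155 of the chosen genes lower. The day of the lowest mean was 15 d in 159 genes, 12 d in 15, 9 d in 13, 6 d in 10 and 3 d in 3. In 80 genes the mean was lower at every step from 0 d to 15 d.

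In the log2 values, each step after 6 d had a smaller median fall than 0 d to 6 d (−1.57), and covered fewer days. This contrast is partly built in, since the rule required at least 0.5 of the 15 d fall by 6 d. The added pseudocount also compresses changes at the low later levels. As a share of FPKM as deposited, the median gene kept 23.0% of its 0 d level at 6 d and 28.5% of its 6 d level at 15 d. Median-ratio scaling divided the 0 d libraries by 0.9695 to 1.018, those of 6 d by 1.106 to 1.175 and those of 15 d by 0.7084 to 0.8526. Such scaling lowers the first share and raises the second, so the 2 shares cannot be compared without it. The rescaled shares were not computed. The median log2 difference was −0.27 at 9 d against 6 d, with 151 genes lower, and −0.31 at 15 d against 12 d, with 175 genes lower. Over all genes tested these medians were −0.06 and −0.21, with 58.6% and 67.3% of genes lower. The medians of the chosen genes for these steps were −0.23 and −0.15 with median-ratio scaling, with 147 and 136 genes lower, and −0.17 and −0.17 with quantile normalization, with 135 and 137 genes lower. An FPKM of 0 was listed in 159 of the 2400 values of 6 d to 15 d, in 65 of the genes. No 0 d value was 0, since a positive gap does not allow it.

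The highest library after 3 d, which sets the gap, was of 6 d in 101 genes, of 12 d in 54, of 9 d in 43 and of 15 d in 2. Replicate 2 was the high library of its day at both 9 d and 12 d. It was the highest of the 3 in 167 of the 200 genes at 9 d and in 175 at 12 d, beside 44.8% and 49.2% of all genes tested, and on both days in 148 genes (27.8% of all). The medians over the chosen genes were 0.465, 2.94 and 1.5 FPKM in replicates 1, 2 and 3 of 9 d and 0.785, 3.05 and 0.375 FPKM in those of 12 d. At 15 d they were 0.365, 0.38 and 0.69 FPKM.

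**Figure D5:**
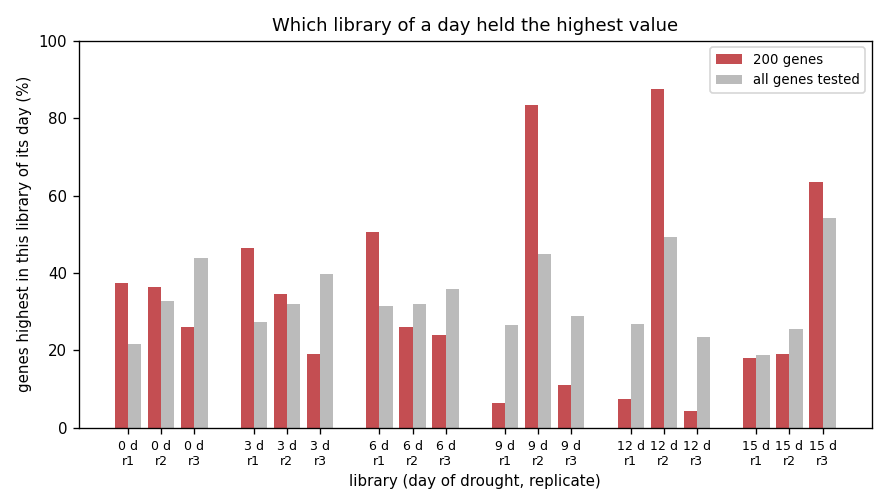
Percentage of genes whose highest value of a day was in the given library, for the 200 genes (red) and all genes tested (grey), with libraries ordered by day and replicate. Replicate 2 is the highest in 167 of the 200 genes at 9 d and in 175 at 12 d, and replicate 3 in 127 at 15 d.

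Relative to each gene's 0 d mean, the median log2 differences were −2.42, −1.34 and −1.89 in replicates 1, 2 and 3 of 9 d and −2.15, −1.39 and −2.55 in those of 12 d. At 15 d they were −2.52, −2.52 and −2.31. Replicate 2 of 9 d and of 12 d thus stood near the 6 d libraries, which were at −1.34, −1.65 and −1.84. The genes past rank 200 had the same order, with −1.10, −0.57 and −0.94 at 9 d and −1.01, −0.54 and −1.25 at 12 d.

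In log2(FPKM + 1), the spread between libraries was wide at these days and narrow at 15 d. The median chosen gene averaged 0.47 FPKM at 15 d, where the added pseudocount compresses a spread. Over the days 0, 3, 6, 9, 12 and 15, the median SD within a day was 0.241, 0.451, 0.369, 0.544, 0.556 and 0.165 log2. All genes tested had 0.183, 0.285, 0.238, 0.314, 0.346 and 0.171 in that order. At 9, 12 and 15 d the chosen genes tended to vary together. After removal of the day means, the 19701 pairs of distinct profiles had a median r of 0.402 over the 18 libraries and of 0.711 over the 9 libraries of 9, 12 and 15 d, where 90.5% of pairs were positive. Over the 6 libraries of 0 d and 3 d the median was 0.084. The 332 genes past rank 200 had medians of 0.243, 0.491 and 0.027. These pairs share their libraries and their scaling, and are a description only. The same r was not computed over all genes tested.

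The pairs of the closest profiles were ranks 10 and 11 (r = 0.993), ranks 34 and 55 (0.987), ranks 82 and 128 (0.968) and ranks 4 and 8 (0.968), apart from the identical ranks 6 and 7. Beyond rank 11, these partners were chosen after their values were seen. By identifier the 200 genes lay on 157 of 1616 prefixes, 9.72% of them, and 77 genes shared a prefix with another chosen gene. The most on one prefix was 4, on a prefix that holds 389 genes. Neighbouring identifiers occurred in 6 pairs, of which ranks 10 and 11 were one. Genes with near-identical copies could exchange fragments in the counting, which makes the levels of such copies uncertain. Whether any of these pairs are copies was not tested, since the genes had no sequences here.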

How the data were processed

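For 18 leaf libraries, the authors deposited FPKM values of each gene, computed with RSEM and given with 2 decimals. The submitters' processing notes also name fastp 0.18.0, Bowtie2 2.2.8, HISAT2 and StringTie 1.3.1. The order of these tools and the genome build are not given in the sources used here. The column names gave the library of each column, and 0 columns went unused. FPKM was not rescaled. The deposited values were taken as log2(FPKM + 1), which understates the change of low genes.

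One mean per day was fitted to all 18 libraries with limma 3.58.1 (trend, moderated variance) in R 4.3.3 over the genes with a mean of at least 0.1 FPKM. P-values are two-sided and adjusted over all of them, with a threshold of 0.05. Ranks and counts were computed with Python 3.11.15. The limma step was tested on simulated data. Alternatives were median-ratio scaling, quantile normalization, a pseudocount of 0.1, no filter or a mean of at least 1 FPKM, a log2 difference of at least 1, a replicate block, and leaving out each library. Rescaling of the steps between later days was added after the data were seen.

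The genes and the tests were chosen with earlier results of these data known. Identifiers are printed for the 2 genes of the largest gap. Others named singly are ranks 3 to 10, 100, 200 and the first past it, the 3 highest and 3 lowest at 0 d, the 3 largest and 3 smallest shares at 3 d, and genes called at 3 d or of the lowest p between 9 d and 12 d, except where said otherwise.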

Additional observations from a re-analysis of the deposited data

How the results depend on the processing

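Fragment counts were not used, so the scale between libraries was not taken from the depth. For the call of all genes at 3 d against 0 d (7 genes), median-ratio scaling gave 13, quantile normalization 19, a pseudocount of 0.1 gave 0 and a mean of at least 1 FPKM gave 2, with 0 to 909 when one library was left out. Of the 200 genes, 2 were called, and the same settings gave 6, 9, 0 and 1, with 0 to 18 without one library.

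Between 12 d and 9 d the count over all genes was 0 in every setting except leaving out a library, which gave 0 to 25 (25 without replicate 2 of 12 d and 1 without replicate 2 of 9 d), and 0 of the 200 genes throughout. The rule chose again 128 of the genes with median-ratio scaling, 123 with quantile normalization and 140 with a pseudocount of 0.1, and 84 to 200 without one library. The genes with a positive gap (532) became 1239, 1241 and 412, or 454 to 1236 without one library, and those of the mirrored rule (1952) became 1040, 1395 and 2070, or 1794 to 2584. The median share of the fall reached at 3 d was 0.451, 0.481 and 0.373, or 0.356 to 0.472. Falls outnumbered the mirrored rises with median-ratio scaling, and of the 909 genes called at 3 d without replicate 2 of 3 d 75 were lower, against 6 of 7 with all libraries. The cause of the changes was not tested.

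The replicate block called 4 of the 200 genes at 3 d and 0 at 12 d against 9 d. Of 45 same-numbered library pairs 15 deviated from their day means with r over 0.1, in a range of −0.585 to 0.587. Between 9 d and 12 d, r was 0.587, 0.573 and −0.207 for replicates 1, 2 and 3. Over all days 5 of 18 libraries correlated best with their own number, so the numbers were not taken to pair the samples.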
